A study of Mus musculus with 3 samples.

Results

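The genes described here are 9 genes of tuft cell signalling, Dclk1, Trpm5, Pou2f3, Il25, Alox5, Alox5ap, Rgs13, Sh2d6 and Gnat3, chosen by name and matched to the gene symbols of the deposited tables, where all 9 of 9 were found among 51912 genes. They were followed in single-cell RNA sequencing (scRNA-seq) of mouse intestinal epithelium from 2 libraries of VillinCreERT2;Arid3a fl/fl mice (Arid3a cKO, in which the floxed gene is removed by a Cre recombinase that the Villin promoter drives in the intestinal epithelium and that tamoxifen switches on) and 1 library of VillinCreERT2 mice (WT), which carry the recombinase without the floxed alleles. Arid3a encodes a DNA-binding transcription factor. Tamoxifen was given to both genotypes at 8 to 10 weeks of age, and intestine was collected 1 month after the first dose. Isolated crypts were dissociated, and living Epcam-positive cells lacking CD45 and CD31 were sorted for 10x 3′ libraries, which count captured transcripts as unique molecular identifiers (UMIs). How many animals stand behind a library is not given in the sources used here, and the spread between the 2 Arid3a cKO libraries may be technical. The libraries are written cKO 1, cKO 2 and WT, and 3 values that follow each other without names are in that order.

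Tuft cells are rare epithelial cells with a brush of stiff microvilli that taste the gut content. Receptors at their surface signal through G proteins, phospholipase C and release of calcium, which opens the cation channel Trpm5, and the activated cell secretes the cytokine Il25, cysteinyl leukotrienes and acetylcholine. In the small intestine this output reaches group 2 innate lymphoid cells, whose cytokines feed back on the crypt and raise the number of tuft and goblet cells. Pou2f3 is the POU-domain transcription factor that tuft cells need in order to form. Gnat3 (gustducin) is the alpha subunit of a taste G protein, and Rgs13 belongs to the proteins that speed up the switching-off of G protein alpha subunits. Alox5 is the 5-lipoxygenase that starts leukotriene synthesis, and Alox5ap (FLAP) is the membrane protein that presents arachidonic acid to it. Dclk1 is a microtubule-associated kinase widely used as a tuft cell marker, and Sh2d6 is a protein with an SH2 domain whose role is little described.

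The genes lie on 7 chromosomes of the mouse genome (GENCODE M21 annotation of GRCm38): Rgs13 on chromosome 1 (144138654 to 144177372, minus strand), Dclk1 on chromosome 3 (55242364 to 55539068, plus strand), Gnat3 (17962549 to 18019834) and Alox5ap (149264767 to 149288153) both on the plus strand of chromosome 5, Sh2d6 (72513641 to 72521707) and Alox5 (116410077 to 116461178) both on the minus strand of chromosome 6, Trpm5 on chromosome 7 (143069153 to 143094642, minus strand), Pou2f3 on chromosome 9 (43123939 to 43210369, minus strand) and Il25 on chromosome 14 (54932695 to 54935837, plus strand). Since these genes were detected together in 1 cell class, the DNA directly before their starts is shown for those with contrasting letters or positions. RefSeq promoter sequences (GRCm38.p6, 250 bases before to 50 after a start) were at hand for 6 of the 9 genes, in 7 windows because Dclk1 has 2 starts, and not for Pou2f3, Il25 and Alox5ap. The stretches below are the upstream bases next to the start, 5′ to 3′ on the gene's own strand, and capitals mark a motif match: the first 6 letters of the octamer read on the other strand in Gnat3 and a GC box in Alox5.
Dclk1, first start, chr3:55242264-55242363, plus strand: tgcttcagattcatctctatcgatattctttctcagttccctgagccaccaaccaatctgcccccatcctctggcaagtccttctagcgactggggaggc
Dclk1, second start, chr3:55461628-55461727, plus strand: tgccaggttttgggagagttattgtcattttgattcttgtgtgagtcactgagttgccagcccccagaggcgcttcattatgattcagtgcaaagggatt
Trpm5, chr7:143094643-143094742, minus strand: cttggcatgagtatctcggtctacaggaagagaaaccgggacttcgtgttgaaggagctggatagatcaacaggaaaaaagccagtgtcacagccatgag
Gnat3, chr5:17962470-17962548, plus strand: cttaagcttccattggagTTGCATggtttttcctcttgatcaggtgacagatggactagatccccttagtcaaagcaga
Alox5, chr6:116461179-116461278, minus strand: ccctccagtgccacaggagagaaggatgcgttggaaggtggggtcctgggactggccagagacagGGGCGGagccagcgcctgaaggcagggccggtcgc

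POU-domain factors such as Pou2f3 read the octamer, so that motif was searched on both strands of the 300-base windows. The full octamer ATGCAAAT (reverse ATTTGCAT) was in 0 of the 7 windows and in 1.74% of 32851 windows of all genes. Its first 6 letters, ATGCAA (reverse TTGCAT), were found in the Gnat3 window only, against 10.7% of all windows, and any full octamer holds them too. The GC box GGGCGG (reverse CCGCCC) was in the Alox5 window only, against 35.7% of all windows, the TATA box TATAAA (reverse TTTATA) was in 0 of 7 against 13.6%, and the E box CAGCTG, which reads the same on both strands, was in 0 of 7 against 16.3%. The Alox5 stretch was GC-rich (69%), the Trpm5 stretch was at 49% and the second Dclk1 stretch at 46%, while the median of the 100 bases before the start over all windows was 55%. A match is a description of letters and no measure of binding.

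Of 25554 barcodes, 5594 (21.9%) had at least 1000 genes and at most 15% of UMIs from mitochondrial genes and were kept: 2134 in cKO 1, 1550 in cKO 2 and 1910 in WT, with medians of 31391.5, 35764 and 29895 UMIs per cell. Arid3a itself was at 0.592 and 0.894 counts per 1000000 UMIs (CPM) in the Arid3a cKO libraries and at 2.57 CPM in WT over all kept cells. The libraries shared 11 to 18 barcodes by pair, of which 3 in all were kept and none was tuft-like. Clustering, from which the 9 genes were left out, gave 12 clusters, and the 1 that led with tuft markers held 98 cells with 17 of the marker genes among its top 50 genes and 7 among its top 10, such as Lrmp, Matk, Fyb, Ly6g6f, Siglecf and Avil.

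Tuft-like cells were 1.78% of kept cells in cKO 1 (38 cells, 95% interval 1.26 to 2.44%), 1.29% in cKO 2 (20 cells, 0.790 to 1.99%), while WT had 2.09% (40 cells, 1.5 to 2.84%). The 3 intervals, which cover counting error only here and in all that follows, overlapped. The cells were shallow, with median totals of 9006, 13283.5 and 9152.5 UMIs. Their label came from tuft markers that the members do not include, so values of these markers describe the class and are no separate check. Of the 23 marker genes 22 were detected in each library, at 22062, 12330 and 20687 CPM in sum, and Gnb3 was at 0. Markers of T cells, mast cells and group 2 innate lymphoid cells were at 0 UMIs in all 3 libraries, and macrophage and B cell lists gave 1 or 2 UMIs per library. Epcam, for which the cells had been sorted, was found in all 98 cells.

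All 9 genes had their highest level in tuft-like cells, and no other class of cells exceeded a mean of 4.41 CPM for any of them. Over the 3 libraries 10067 UMIs of the 9 genes were counted, and 9083 of them (90.2%) came from the 98 tuft-like cells, which were 1.75% of the kept cells. By library the share was 87.5% in cKO 1 (86.4 to 88.5%), 91.0% in cKO 2 (89.7 to 92.2%) and 92.5% in WT (91.6 to 93.3%). The genes were thus concentrated in 1 class in each library.

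**Figure D1:**
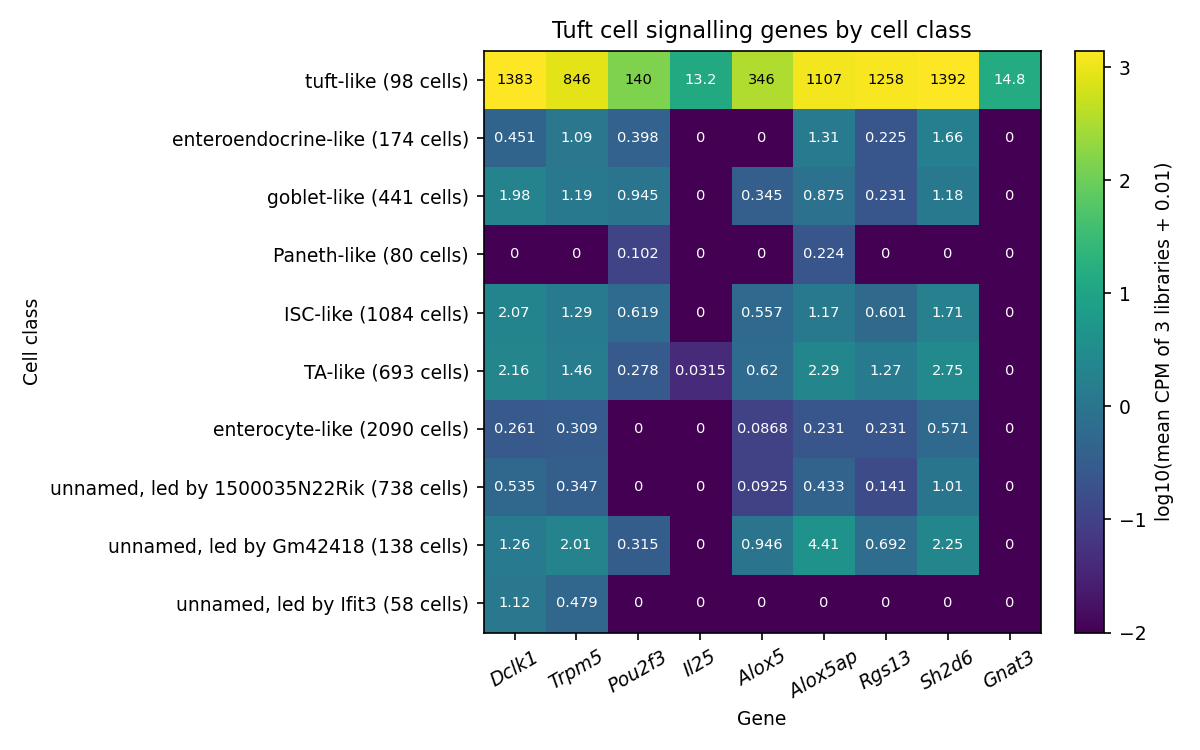
Mean CPM of each gene over the 3 libraries in each cell class, with colour on a log10 scale of mean CPM + 0.01 and the mean CPM written in each cell. The tuft-like row holds the highest value in every column, from 13.2 CPM for Il25 to 1392 CPM for Sh2d6, and Gnat3 is at 0 in all other rows.

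Among the signalling genes, Trpm5 was at 1071 CPM in tuft-like cells of cKO 1, 510 CPM in cKO 2 and 956 CPM in WT, and in the cells outside the class it was at 1.06, 0.693 and 0.563 CPM. Rgs13 was at 1543, 905 and 1328 CPM in tuft-like cells, at least 2090 times its level in the other cells of the same library. Gnat3 was found in tuft-like cells only, with 21 UMIs in 15 of 98 cells and in 0 of 5496 other cells, a count that allows up to 0.0671% of those cells to carry a UMI (exact binomial), which is no limit on cells that express the gene. Il25, the secreted cytokine, had 19 of its 20 UMIs in 15 tuft-like cells and 1 UMI in a transit-amplifying-like (TA-like) cell.

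The leukotriene pair followed the same distribution. Alox5 was at 454, 202 and 382 CPM in tuft-like cells, 970 to 1483 times its level in other cells, and Alox5ap at 1261, 939 and 1121 CPM, 1025 to 2009 times. The only class mean of Alox5ap above 2.29 CPM elsewhere, 4.41 CPM in an unnamed cluster of 138 cells led by Gm42418, came from 14 UMIs in 3 cells, all of them in WT. Pou2f3 was at 168, 105 and 148 CPM in tuft-like cells and had 49 UMIs in 32 of the 5496 other cells. Dclk1 and Sh2d6 were the members seen in every tuft-like cell, at 1461, 1010 and 1678 CPM for Dclk1 and 1618, 932 and 1627 CPM for Sh2d6. By comparison, 229 of 5901 genes with at least 20 CPM in tuft-like cells (3.88%) were at least 4-fold higher there than in other cells in each library, and 7 of the 9 genes reached 20 CPM and were among them. Since clusters are built from expression, these folds describe the class and test nothing.

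Most tuft-like cells carried most of the genes at once. UMIs of Dclk1 and Sh2d6 were found in 98 of 98 tuft-like cells, of Trpm5 in 97, of Alox5ap in 96, of Rgs13 in 94, of Alox5 in 93 and of Pou2f3 in 78. In 74 of the 98 cells all 7 of these genes were detected, and 97 cells had at least 5 of the 9 genes. The exception was a cell of cKO 2 with 2 of the 9. Il25 and Gnat3 were each seen in 15 cells (15.3%, 8.83 to 24.0%), and 4 cells held both.

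Because tuft-like cells were shallower than other cells, each cell was also thinned to 5000 UMIs, which left out 7 tuft-like cells. At this depth UMIs were found in 98.9% of 91 tuft-like cells for Sh2d6, 97.8% for Dclk1 and Alox5ap, 96.7% for Trpm5 and Rgs13, 80.2% for Alox5 and 54.9% for Pou2f3, and in 8.79% for Gnat3 and 7.69% for Il25. No other class exceeded 1.75% for any of the genes. The gene with the widest gap between libraries was Alox5, seen in 85.7% of thinned tuft-like cells of cKO 1 (69.7 to 95.2%), 55.6% of cKO 2 (30.8 to 78.5%) and 86.8% of WT (71.9 to 95.6%). Pou2f3 was at 57.1%, 55.6% and 52.6%.

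To ask whether loss of Arid3a went with a different level of these genes within tuft-like cells, each Arid3a cKO library was set against WT as the log2 ratio of CPM + 5. No gene of the 9 passed the size rule, which asked for a mean of at least 20 CPM and a ratio of at least 1 in size and equal sign in both Arid3a cKO libraries. Over all genes 81 of 5901 (1.37%) passed it, 46 higher and 35 lower in Arid3a cKO, and with CPM computed without mitochondrial genes, Gm42418, Gm26917 and Malat1 the split was 55 higher and 63 lower. In simulated tuft-like sums, where all genes had the same relative spread between libraries, the rule gave 192 false calls among 6610 genes. That exceeds all calls in the data, so the number cannot be carried over to them. The rule is no test, and the 81 genes are not shown to differ. The median log2 ratio of the 9 genes was 0.16 in cKO 1 and -0.80 in cKO 2, with a mean-based median of -0.37, while that of all genes tested was -0.03. cKO 2 was thus the low library, and cKO 1 lay near or above WT for most of the genes.

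Dclk1 was lower than WT in both Arid3a cKO libraries (log2 ratios -0.20 and -0.73), with intervals of 1352 to 1577, 915 to 1112 and 1568 to 1794 CPM, of which the first overlapped that of WT at its upper end. The ratio of Dclk1 CPM to WT was 0.871 (0.786 to 0.965) in cKO 1 and 0.602 (0.534 to 0.677) in cKO 2, below 1 beyond counting error in both, while the spread between animals was not measured for WT. Trpm5 was higher than WT in cKO 1 (0.16) and lower in cKO 2 (-0.90). Alox5 showed the same pattern (0.25 and -0.90), as did Rgs13 (0.22 and -0.55), Alox5ap (0.17 and -0.25) and Pou2f3 (0.17 and -0.48). In each of these 5 genes WT lay between the Arid3a cKO libraries. Sh2d6 was level with WT in cKO 1 (-0.01) and lower in cKO 2 (-0.80).

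Il25 was counted 5 times in cKO 1, 3 times in cKO 2 and 11 times in WT (11.0, 7.32 and 21.4 CPM), in 3, 3 and 9 cells. Its ratio of CPM to WT was 0.515 (0.140 to 1.61) and 0.342 (0.0612 to 1.29). Gnat3 was counted 8, 3 and 10 times (17.6, 7.32 and 19.5 CPM), with ratios of 0.906 (0.311 to 2.55) and 0.376 (0.0665 to 1.46). For both genes the intervals include 1, and a difference was not detectable at this depth.

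**Figure D2:**
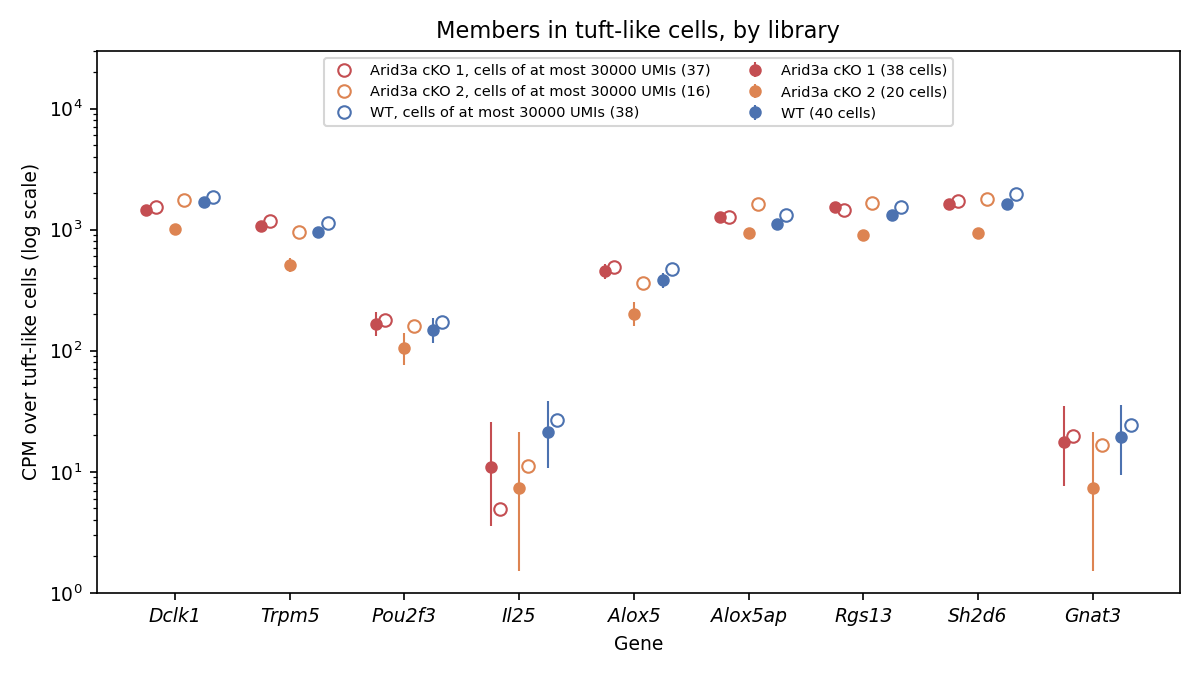
CPM of each gene over tuft-like cells on a log axis, with filled points and 95% Poisson bars for all tuft-like cells of a library and open points for cells of at most 30000 UMIs. With all cells cKO 2 is the lowest library for every gene, and without the deepest cells it lies above WT for Alox5ap (1636 against 1313 CPM) and Rgs13 (1664 against 1530 CPM).

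In edgeR's quasi-likelihood test on UMIs summed over tuft-like cells, in which the lone WT library is assumed to vary like the Arid3a cKO pair, 17 of 6610 genes (0.257%) had an adjusted p under 0.05, 6 higher and 11 lower in Arid3a cKO, and 160 an unadjusted p under 0.05. Of the 9 genes 7 were deep enough to be tested and 0 were called by edgeR, with 0 at an unadjusted p under 0.05 and 0 called by DESeq2. The lowest p among them was 0.419 for Dclk1 (log2 fold -0.42, adjusted p 1.00). In simulated tuft-like sums this test recovered only 46.0% of 4-fold changes, so changes of that size as well as smaller ones could be missed.

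The low levels in cKO 2 went with a few deep cells. In that library 4 of 20 tuft-like cells had over 30000 UMIs and held 55.9% of the tuft-like UMIs but 20.3% of the UMIs of the 9 genes. cKO 1 had 1 such cell (10.6% and 7.83%) and WT had 2 (20.4% and 6.98%). In cKO 2, 1 tuft-like cell held 97.1% of the goblet marker UMIs, where that list was at 9857 CPM against 1746 in cKO 1 and 5542 in WT. In WT, 1 cell held 92.3% of the enteroendocrine marker UMIs (6558 CPM, against 401 and 256). Elsewhere the top cell held less: 76.4% and 36.6% for goblet markers in cKO 1 and WT, 14.8% and 23.8% for enteroendocrine markers in cKO 1 and cKO 2. Without cells of over 30000 UMIs, 779 of 792 goblet marker UMIs remained in cKO 1 and 2820 of 2847 in WT. Lists of further cell types were not examined by cell. Scrublet, a caller of doublets, marked 110 of all kept cells and 4 tuft-like cells, 1 in cKO 1 and 3 in WT. Whether the deep cells hold RNA of more than 1 cell was not tested.

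Without the cells of over 30000 UMIs, a limit chosen after the data were seen, the gap of cKO 2 narrowed. Dclk1 was then at 1545, 1741 and 1865 CPM, Trpm5 at 1168, 962 and 1139 CPM, and Sh2d6 at 1720, 1780 and 1966 CPM. Among the 7 genes that reached 20 CPM with all tuft-like cells, Alox5 had the widest gap in relative terms, at 488, 365 and 469 CPM. Gnat3, with few UMIs, was at 19.7, 16.6 and 24.4 CPM. Pou2f3, at 180, 160 and 171 CPM, was level across the libraries. Of the 9 genes 0 passed the size rule in this setting as well.

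Taking cells one by one, the medians kept the library order of the sums for 6 of the 7 frequent genes, with Alox5ap as the exception. The median tuft-like cell held 13.2 Trpm5 UMIs per 10000 in cKO 1, 6.82 in cKO 2 and 12.7 in WT. For Alox5 the medians were 5.69, 1.30 and 5.13 per 10000, and for Sh2d6 19.6, 10.3 and 23.2. Alox5ap (12.0, 11.6 and 12.8), Rgs13 (11.7, 10.3 and 11.6) and Pou2f3 (1.46, 1.29 and 1.33) were close to level, and Dclk1 was at 15.4, 13.1 and 19.4. Cells within a library ranged far more widely than the medians, from 0.366 to 51.5 Dclk1 UMIs per 10000 in WT alone.

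**Figure D3:**
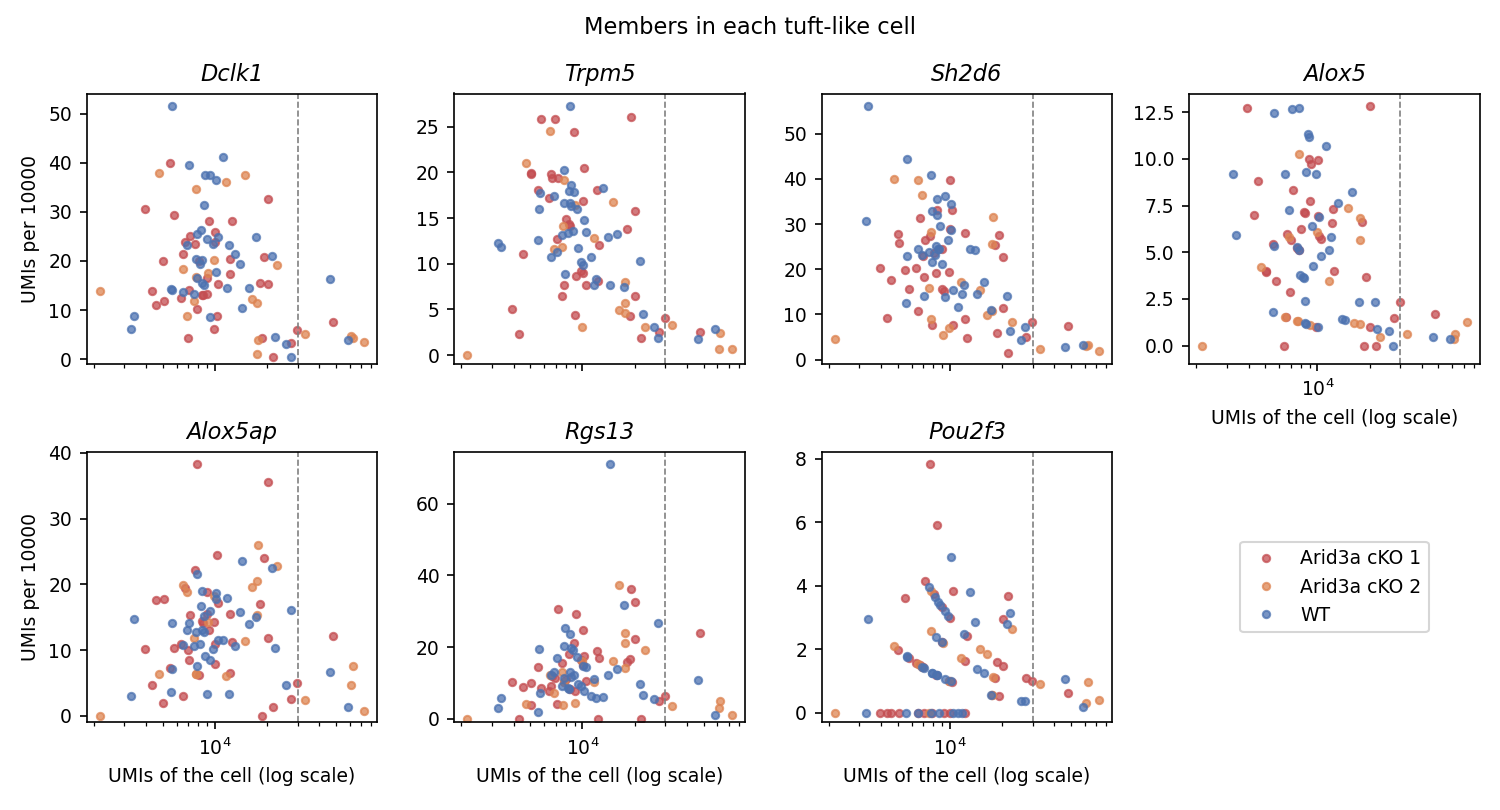
UMIs of 7 genes per 10000 UMIs of each tuft-like cell against the cell's total on a log axis, coloured by library, with a dashed line at 30000 UMIs. The 7 cells right of the line lie below the median of all tuft-like cells for Dclk1 (16.6), Trpm5 (12.1), Alox5 (5.11) and Sh2d6 (19.6).

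The members did not vary together across depth. In the 72 tuft-like cells of up to 15000 UMIs, the 19 cells above that and up to 30000 UMIs and the 7 deeper cells, the median Trpm5 level was 13.9, 4.91 and 2.41 UMIs per 10000, that of Sh2d6 23.2, 10.8 and 2.94, and that of Alox5 5.77, 1.45 and 0.606. Dclk1 was at 19.7, 11.4 and 4.74. Alox5ap (12.3, 15.4 and 4.74) and Rgs13 (11.4, 16.6 and 3.63) were higher in the middle range than in shallower cells. In the middle range alone, the libraries did not keep the order of the sums: Trpm5 was at 5.35, 4.91 and 6.0 per 10000 (8, 5 and 6 cells).

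Tuft-like cells were also parted by UMIs of 6 genes that were not members, Nrep, Gng13, Ptprc, Sucnr1, Chat and Il17rb, of which the first 3 set apart the same 5 genes and the others did not. Nrep and Gng13 have been used to mark tuft cells with a neuronal-type profile, and Ptprc, which encodes CD45, those with an immune-type profile. These splits were chosen after values had been seen and are descriptions. Cells with an Nrep UMI (5, 7 and 7 cells) were deeper, with a median of 20236 UMIs against 8582. Trpm5 was at 600, 301 and 441 CPM in them and at 1162, 707 and 1221 CPM in the other tuft-like cells, a mean log2 ratio of CPM + 5 of -1.21 ± 0.26 (SD, n = 3 libraries). Alox5 was at 123, 90.4 and 97.3 CPM against 518, 308 and 528 CPM (-2.04 ± 0.33). Sh2d6 (-1.31 ± 0.21) and Dclk1 (-0.69 ± 0.09) were lower too in each library. Gnat3 had 0, 5.02 and 0 CPM against 21.0, 9.48 and 29.5 CPM. With only 8, 3 and 10 UMIs in tuft-like cells, Gnat3 is counted below by direction alone and is too sparse for a comparison. Pou2f3, Alox5ap, Rgs13 and Il25 had no common direction over the 3 libraries. The same 5 genes were lower in each library when the cells of over 30000 UMIs were left out.

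In tuft-like cells with a Ptprc UMI (20, 9 and 25 cells), the same 5 genes were higher in each library. The median depth of these cells was 9006 UMIs against 10257.5 in the rest, but in cKO 2 it was 7763 against 17535 UMIs. Trpm5 was at 1302, 1115 and 1366 CPM in them and at 804, 297 and 566 CPM in the rest (1.28 ± 0.60). The ratio was 1.34 ± 0.45 for Alox5, 1.19 ± 0.27 for Sh2d6 and 0.78 ± 0.59 for Dclk1, which no longer kept its direction in each library without the deep cells. Without those cells the ratio was smaller for Trpm5 (0.82 ± 0.41), Alox5 (0.96 ± 0.27) and Sh2d6 (0.77 ± 0.09). Cells with a Gng13 UMI (13, 9 and 16) were lower for these 5 genes, with -0.77 ± 0.12 for Trpm5 and -0.57 ± 0.33 for Alox5, and again deeper (12796 against 8283 UMIs), and without the deep cells 4 of the 5 kept that direction. Alox5 and Alox5ap, whose proteins work together, thus had different distributions over tuft-like cells, Alox5ap being at 1160, 1140 and 1247 CPM in the cells with Nrep and 1280, 749 and 1056 CPM in the others. Cells with UMIs of Sucnr1, a receptor for succinate, were higher in each library for Trpm5, Alox5 and Sh2d6 only, with or without the deep cells. Those with Chat were higher for Gnat3 and lower for Il25, and those with Il17rb higher for Alox5 and Sh2d6 and lower for Pou2f3 and Il25. Without the deep cells, only Rgs13, which was lower, kept a common direction for Chat. For Il17rb, Trpm5, Alox5 and Sh2d6 were then higher and 0 genes lower. Il25 and Gnat3 had only 19 and 21 UMIs in all tuft-like cells. Part of the depth difference moves with these splits, and its share in the ratios was not tested. The sort removed cells with CD45 protein at the surface, while Ptprc UMIs were found in 54 of the 98 cells.

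**Figure D4:**
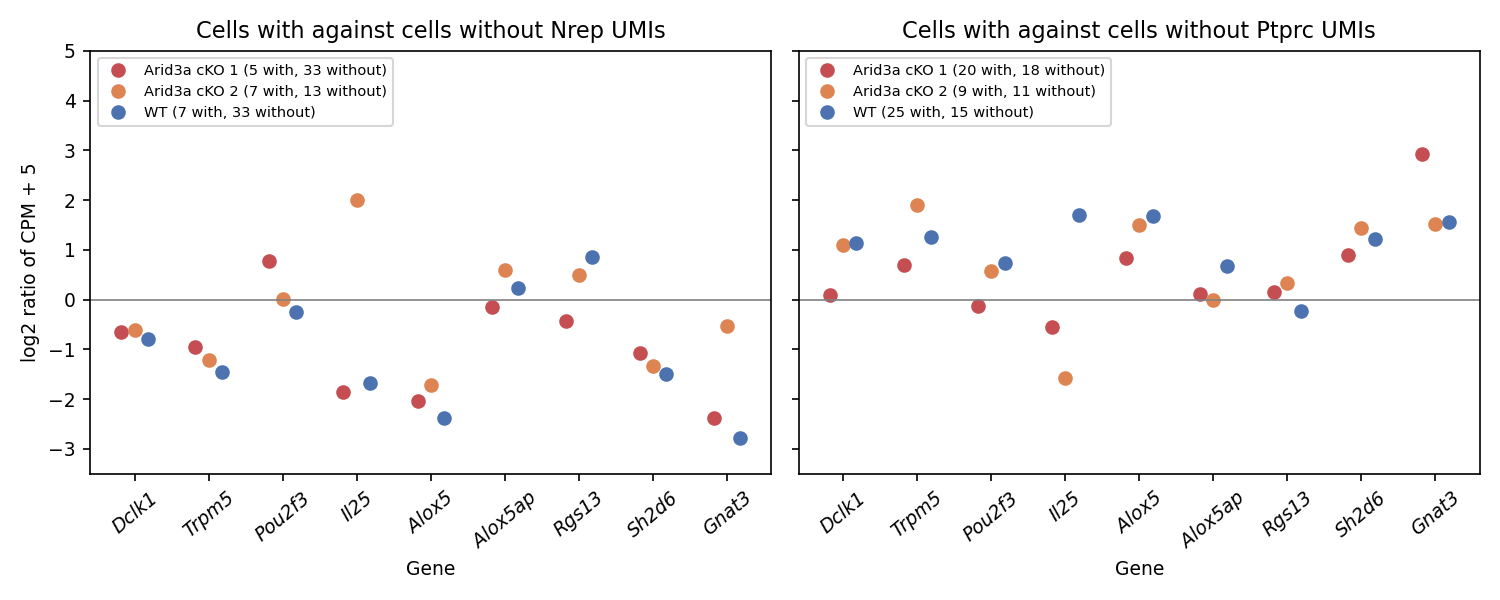
Log2 ratio of CPM + 5 between tuft-like cells with and without Nrep UMIs (left) and with and without Ptprc UMIs (right) for each gene, 1 point per library. Dclk1, Trpm5, Alox5, Sh2d6 and Gnat3 lie below 0 on the left and above 0 on the right in all 3 libraries, and the other 4 genes fall on both sides. The Gnat3 points rest on 8, 3 and 10 UMIs.

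Over all kept cells the 9 genes summed to 3942 UMIs in cKO 1 (55.6 CPM, 53.9 to 57.3), 2080 in cKO 2 (35.8 CPM, 34.2 to 37.3), while WT had 4045 (64.5 CPM, 62.5 to 66.5). Both Arid3a cKO libraries were below WT (log2 ratios -0.22 and -0.85), and they differed from each other by more than cKO 1 differed from WT. In such sums alone, fewer tuft cells and less RNA per tuft cell cannot be told apart. Of the UMIs of the 9 genes, 3450, 1893 and 3740 lay in the 38, 20 and 40 tuft-like cells. What set the difference between the sums was not tested. Dclk1 was at 11.0, 7.70 and 14.8 CPM, Sh2d6 at 12.1, 7.32 and 14.6 CPM, Rgs13 at 10.5, 6.81 and 11.2 CPM and Alox5ap at 9.24, 7.08 and 10.3 CPM. Trpm5 was at 7.91, 4.28 and 8.39 CPM. Alox5 was at 3.37, 1.58 and 3.38 CPM. Every gene thus had its highest sum in WT, but between cKO 1 and WT the interval of the ratio lay below 1 for Dclk1 (0.674 to 0.818) and Sh2d6 (0.752 to 0.908) and included 1 for the other 7 genes. These intervals leave out the spread between cells and between animals.

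With a mean of at least 1 CPM and a ratio of CPM + 1, 0 of the 9 genes passed the size rule over all kept cells, against 42 of 12215 genes (0.344%). In edgeR 116 of 16670 genes (0.696%) were called over all kept cells, 40 higher and 76 lower in Arid3a cKO, and 1833 had an unadjusted p under 0.05. All 9 genes were tested, 0 were called by edgeR or by DESeq2, and Dclk1 (log2 fold -0.62, adjusted p = 0.232 in edgeR) and Sh2d6 (log2 fold -0.55, adjusted p = 0.423 in edgeR) had an unadjusted p under 0.05. Without edgeR's filter on low counts, Dclk1 (adjusted p = 0.000307 in edgeR) and Sh2d6 (adjusted p = 0.00252 in edgeR) were called among 677 of 26362 genes. The calls of these 2 genes thus rested on the filter, in a design with 1 residual degree of freedom.

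Genes that act around the members were read from 10 lists and the tuft markers, and in tuft-like cells 0 genes of any list passed the size rule in either direction, beside the 1.37% of all genes. Of 11 surface receptors, 6 reached 20 CPM, with a median log2 ratio of -0.31, and 5 were at least 4-fold higher in tuft-like than in other cells. Cd300lf was at 480, 224 and 409 CPM. Il13ra1, a receptor chain for the lymphoid cytokine that feeds back on crypts, was at 269, 198 and 230 CPM, Ffar3, a receptor for short-chain fatty acids, at 205, 97.6 and 154 CPM and Il17rb, a receptor chain for Il25 itself, at 161, 63.4 and 127 CPM. The taste receptor chains Tas1r1 and Tas1r2 were at 0 UMIs in tuft-like cells.

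Of 11 genes of the taste-type cascade, 9 reached 20 CPM (median ratio -0.17) and 5 were at least 4-fold higher in tuft-like cells. The G protein subunit Gnai2 was at 514, 461 and 489 CPM, the calcium-release channel Itpr2 at 370, 222 and 430 CPM, the phospholipase Plcg2 at 353, 207 and 346 CPM and the regulator Rgs2 at 273, 273 and 308 CPM. Gnb3, the taste beta subunit, was at 0 UMIs. Gnai2 was found in 91.8% of other cells too, while Gnat3 was found in tuft-like cells only. Whether both alpha subunits were detected in the same cells was not tested.

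Of 11 transcription factors, 9 reached 20 CPM (median ratio -0.19) and 6 were at least 4-fold higher. Sox9 was at 463, 295 and 467 CPM, Spib at 401, 229 and 393 CPM, Hmx2 at 236, 132 and 202 CPM and Runx1 at 176, 161 and 193 CPM. Of 10 eicosanoid enzymes, 5 reached 20 CPM (median ratio -0.38) and 4 were at least 4-fold higher. Ltc4s, the synthase that makes cysteinyl leukotrienes from the product of Alox5, was at 1020, 722 and 829 CPM, Ptgs1 at 304, 107 and 274 CPM, Hpgds at 249.1, 166 and 179 CPM and the phospholipase Pla2g4a at 174, 95.1 and 169 CPM, while Alox12, Alox15 and Tbxas1 were at 0 UMIs.

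Of 7 secreted effectors or their enzymes besides Il25, 2 reached 20 CPM: Chat, which makes acetylcholine, at 77.1, 29.3 and 37.0 CPM and Tslp at 39.7, 7.32 and 19.5 CPM (median ratio 0.14, 1 gene at least 4-fold higher). Of 14 kinases and adaptors, 12 reached 20 CPM (median ratio -0.48) and 11 were at least 4-fold higher, among them Fyb (1490, 1039 and 1600 CPM), Ptpn18 (1479, 890 and 1388 CPM) and Matk (1303, 710 and 1464 CPM). Of 12 genes of cytoskeleton and tuft structure found in the tables, 10 reached 20 CPM (median ratio -0.19) and 8 were at least 4-fold higher, among them Krt18 (12279, 6616 and 12430 CPM), Lrmp (1986, 1144 and 1602 CPM) and Espn (1122, 727 and 944 CPM), but not Krt8 (7223, 5068 and 7097 CPM), which other cells also express.

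Of 6 genes of the neuronal-type profile, 5 reached 20 CPM (median ratio -0.16), all at least 4-fold higher in tuft-like cells: Nrgn (1001, 388 and 1055 CPM), Rgs2, Gng13 (183, 139 and 148 CPM), Nrep (74.9, 46.3 and 38.9 CPM) and Nradd. Of 10 genes of the immune-type profile, 8 reached 20 CPM (median ratio -0.22) and 6 were at least 4-fold higher, with Rac2 at 595, 319 and 529 CPM and Irf7 at 253, 139 and 210 CPM. Of 18 paralogues of the members, 5 reached 20 CPM (median ratio -0.24) and 2 were at least 4-fold higher, Sh2d7 (469, 224 and 391 CPM) and Rgs2. Gnai3 was at 59.5, 68.3 and 50.6 CPM and Pou2f1 at 22.0, 19.5 and 25.3 CPM, and Pou2f2 and Gnat1 were at 0 UMIs. Of 23 tuft markers, 22 reached 20 CPM and all 22 were at least 4-fold higher in tuft-like cells, with a median ratio of -0.33, a mean over cKO 1 and cKO 2 as for the other lists.

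The genes most like the members in their pattern were sought over 30 points (10 cell classes in 3 libraries) by Pearson correlation of log2(CPM + 1) with the mean profile of the 9 genes, among 14877 genes with at least 50 UMIs. The points share libraries and most of the pattern is the step between tuft-like and other cells. The 10 most alike were Plcb2 (0.993), Spib (0.992), Dgki (0.992), Gfi1b (0.991), Ccdc129 (0.990), Ly6g6f (0.990), Gm19817 (0.989), Gm4952 (0.988), Folr1 (0.987) and Siglecf (0.987). Plcb2 is the phospholipase of the taste cascade, and Gm19817 lies within Dclk1 on the same strand. By member, the most alike gene was Plcb2 for Dclk1, and the 2 most alike were Ly6g6f and Gng13 for Trpm5, Spib and Hmx3 for Pou2f3, Ahnak2 and Gm4952 for Il25, Gfi1b and Plcb2 for Alox5, Plcb2 and Gfi1b for Alox5ap, Ccdc129 and Dgki for Rgs13, Pygl and Spib for Sh2d6, and Gm4952 and Atp2b2 for Gnat3, with correlations from 0.973 to 0.997.

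Overlapping genes could take or lend reads at some members. Within the span of Dclk1, Gm19817 had 20, 22 and 31 UMIs in tuft-like cells, 3.76% of the Dclk1 UMIs in sum, and Gm42608, Gm42607 and Gm25132, on the same strand as well, had 27, 9 and 4 UMIs. Tssc4, on the strand opposite to Trpm5, had 2, 3 and 7 UMIs. Both annotated neighbours that overlap Alox5ap on the other strand were at 0 UMIs.

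Outside the tuft-like class, 5215 of 5496 cells (94.9%) had no UMI of any of the 9 genes. UMIs of at least 3 of the genes were found in 23 of them, 8 in cKO 1, 5 in cKO 2 and 10 in WT, and these cells held 68.4% of the 984 UMIs outside. They were named TA-like (7 cells), stem-like (ISC-like, 6), goblet-like (5) and enterocyte-like (2) or lay in unnamed clusters (3). Their median total was 42548 UMIs, 21 of the 23 had UMIs of at least 5 tuft markers, and Scrublet marked none of them. Tuft markers were at 27.4 UMIs per 10000 in the goblet-like cells among them against 2.89 in other goblet-like cells and 187 in tuft-like cells, and goblet markers at 154 against 2020. In the TA-like cells among them tuft markers were at 15.2 per 10000 against 1.89 in other TA-like cells, and TA markers at 44.5 against 50.4. Whether these barcodes hold 1 cell or several was not tested.

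The limits on cells also removed barcodes with these genes. Of 163 barcodes with UMIs of at least 3 of the 9 genes, 120 (73.6%) were kept, against 21.6% of all other barcodes. The 43 removed ones were 14 in cKO 1, 9 in cKO 2 and 20 in WT, and 33 of them had at least 5 of the genes. In 35 the mitochondrial limit alone decided, in 1 the limit on genes and in 7 both. Their median was 7019 UMIs with 21.9% mitochondrial, and they held 704, 234 and 711 UMIs of the 9 genes. Per 1000 UMIs this was 6.36, 5.66 and 4.16, against 7.60, 4.63 and 7.28 in tuft-like cells with at least 3 of the genes. All removed barcodes together held 17.8% of the 12250 UMIs of these genes in the deposited tables.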

How the data were processed

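The authors aligned and counted 10x 3′ reads with Cell Ranger 5.0.0 and deposited raw UMI counts per gene and barcode. The genome build used for counting is not given in the sources used here. The 9 genes and all lists were chosen with earlier results of these data known. Barcodes with at least 1000 genes and at most 15% mitochondrial UMIs were integrated and clustered in Seurat 5.3.0 (R 4.3.3, resolution 0.3, 3000 integration features, 30 components, the 9 genes left out), and Scrublet (scanpy 1.11.5, Python 3.11.15) marked doublets, which were kept. A cluster was named from at least 3 markers among its top 50 genes. Failing that, it was named from at least 3 markers at least 1.5-fold higher than in other cells, with at least 1 in the top 50. Enterocyte-like clusters of 759 and 415 cells were named in this second way.

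UMIs were summed per library and class. Counts have exact Poisson and shares exact binomial (Clopper-Pearson) intervals of 95%, for counting error only. With 1 WT library the main comparison was a rule of size, with no test: a log2 ratio of at least 1 in both Arid3a cKO libraries, in the same direction, on CPM + 5 with a mean of at least 20 CPM in tuft-like cells, or on CPM + 1 with a mean of at least 1 CPM over all kept cells. Beside it, edgeR 4.0.16 (quasi-likelihood, Benjamini-Hochberg adjustment) and DESeq2 1.42.0 tested summed counts on the 1 residual degree of freedom that the Arid3a cKO pair gives. Counts were simulated with the same relative spread between libraries for all genes and 200 genes changed 4-fold. In these counts edgeR recovered 100% over all kept cells (16670 genes) and 46% in tuft-like cells (6610 genes). The rule of size recovered 91% and 77%, with 0 and 192 false calls.

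Named were all 9 genes, up to 4 genes of highest mean CPM per list plus any past the rule of size, the 10 genes most like the mean profile and the 2 most like each gene among genes of at least 50 UMIs. Others named after their values were seen are list genes at 0 UMIs, overlapping genes and the genes of the splits. 1 gene that this rule names is not reported here.

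Marker lists of other cell types in tuft-like cells summed to 1746, 9857 and 5542 CPM for goblet, 401, 256 and 6558 for enteroendocrine, 280, 654 and 518 for stem, 403, 544 and 1129 for TA, 14399, 8353 and 6007 for enterocyte and 754, 261 and 510 for Paneth cells in cKO 1, cKO 2 and WT. Fibroblast and endothelial markers had 0, 1 and 0 UMIs.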

Additional observations from a re-analysis of the deposited data

Results flagged for a closer look

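Barcodes with UMIs of at least 3 of the 9 genes were found among those that the limits on cells removed, which no comparison above uses: 43 barcodes, 14 in cKO 1, 9 in cKO 2 and 20 in WT. There are no control barcodes for such a count, and it was set apart because the limits on cells left these barcodes out, with no threshold on the count. Of the 43, 33 had UMIs of at least 5 of the genes, and their median mitochondrial share was 21.9%, with a range from 4.05 to 81.1%. Whether these barcodes were damaged tuft cells was not tested.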

How the results depend on the processing

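Of the 9 genes, 0 passed the rule of size in tuft-like cells under any of 17 alternatives and 0 over all kept cells under any of 10. Their median log2 ratio in tuft-like cells, -0.37, ranged from -0.80 without cKO 1 to 0.16 without cKO 2, and its direction also turned, to 0.10, with tuft-like cells defined by UMIs of at least 5 tuft markers. It was -0.15 without tuft-like cells of over 30000 UMIs, an alternative added after the data were seen. Their summed level over all kept cells was lower than in WT by a log2 ratio of -0.53 (-0.85 without cKO 1, -0.22 without cKO 2). The difference in the tuft-like share of cells, -0.56 percentage points, was -0.80 without cKO 1, -0.31 without cKO 2 and -0.23 with a lower minimum of genes and at most 25% mitochondrial UMIs, where the share in cKO 1 lay above that in WT. With the definition by 5 markers it was -0.94 points, and the share of the genes' UMIs in such cells was 97.2% against 90.3%.

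The 81 genes past the rule of size in tuft-like cells became 44 with a lower minimum of genes and at most 25% mitochondrial UMIs, 25 with the 9 genes in the clustering, 372 with no minimum on the mean, 521 with a log2 ratio of at least 0.5, and 305 to 553 without 1 Arid3a cKO library. With other numeric kernels of the linear algebra library in the same clustering commands, also added after the data were seen, they were 42, with 122 in place of 98 tuft-like cells (45, 27 and 50 by library) and a median ratio of -0.22. Without a filter edgeR called 677 genes over all kept cells in place of 116 and 0 in tuft-like cells in place of 17, where DESeq2 called 2. The causes were not tested.

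Leaving out an Arid3a cKO library leaves edgeR no residual degree of freedom, so it was not run. The labels number the libraries within each genotype and name no pairs, so no paired analysis was run. With 1 WT library the spread between WT animals is unknown, and Il25 and Gnat3, at 19 and 21 UMIs in tuft-like cells, were too sparse for a comparison.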
